A study of Mus musculus and Rattus norvegicus with 37 samples.

Results

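Kupffer cell and other macrophage markers were followed in RNA-seq of whole liver from 21 mice and 16 rats. The set was 10 genes, Clec4f, Vsig4, Timd4, Cd5l, Marco, Cd163, Csf1r, Adgre1, Lyz2 and C1qa, matched by gene name, and each of the 10 was found among 47929 uniquely named genes in the mouse tables and among 28026 in the rat tables. The mice were female C57BL/6J on chow. They received 1 subcutaneous injection of saline or of LNA29, a mixture of a pair of locked nucleic acids that block miR-29a and miR-29b/c, given at 20 mg/kg each, and the liver was taken in the fed state at day 7. The WT/Floxed groups pooled WT mice aged 9 to 11 weeks with floxed mice aged 15 to 20 weeks, namely 4 WT and 4 floxed mice with LNA29 (n = 8) and 3 WT and 2 floxed mice with saline (n = 5). The L-Sirt1 KO groups were littermates of the floxed mice with a liver-specific knockout of Sirt1, aged 15 to 20 weeks, with LNA29 (n = 4) or saline (n = 4), and the Cre driver of this line is not given in the sources used here. The rats were male. Zucker Fatty rats (ZFR, fa/fa) and Zucker Lean rats (ZLR) were compared at 5.5 months (n = 4 each), and ZFR of 3 months were compared after 1 week of daily injections of BT2 at 20 mg/kg or of its vehicle, dimethylsulfoxide (n = 4 each).

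Kupffer cells are the resident macrophages of the liver. They sit in the sinusoids, clear particles, complement-coated microbes and aged red cells from the blood, and depend on signalling through the receptor CSF1R for survival. Clec4f, Vsig4, Timd4, Cd5l and Marco are used as markers of the resident cells, while Csf1r, Adgre1, Lyz2 and C1qa are shared with other macrophages. In whole liver, fewer macrophages and less of these RNAs per macrophage cannot be told apart.

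LNA29 targets miRNAs that read their targets through the seed (bases 2 to 8), printed in capitals in the mature mouse miR-29 sequences below, which are shown because they define the site searched for in the 10 genes (RefSeq, GRCm38.p6).
mmu-miR-29a-3p: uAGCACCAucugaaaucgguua
mmu-miR-29b-3p: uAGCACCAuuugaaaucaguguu
mmu-miR-29c-3p: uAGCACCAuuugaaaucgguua
All 3 share the seed AGCACCA. Its 7-base complement, TGGTGCT, occurred in 0 of the 10 genes' 3′ UTRs, against 13.1% of 21022 genes with an annotated 3′ UTR, and the 8-base form TGGTGCTA was in 0 of 10 against 2.86%. No match says only that these letters are not there.

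The 10 genes lie on separate stretches of the mouse genome (GRCm38). Clec4f is at chromosome 6, 83644542 to 83656187, Vsig4 at chromosome X, 96247203 to 96293438, Timd4 at chromosome 11, 46810800 to 46844332, and Cd5l at chromosome 3, 87357881 to 87371073. Marco is at chromosome 1, 120474538 to 120505024, Cd163 at chromosome 6, 124304656 to 124330527, Adgre1 at chromosome 17, 57358691 to 57483527, Lyz2 at chromosome 10, 117277331 to 117282321, and C1qa at chromosome 4, 136895917 to 136898803. Csf1r overlaps Hmgxb3 and Mir6983, and Lyz2 has a near-identical neighbour, Lyz1, so the counts of these genes are uncertain where reads were shared.

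Promoter windows (250 bases before to 50 after the start; RefSeq, GRCm38.p6) were available for 7 of the 10 genes and were searched on both strands for motifs of PU.1, an ETS-family factor of myeloid cells. The motifs GAGGAAGT and AGGAAGTG were in 0 of the 7, against 3.20% and 4.07% of 32851 promoters. The shorter ETS motif GGAAGT, which is contained in both, was added after those searches had matched nothing and was in 4 of the 7, against 23.8% of all promoters. All 5 matched stretches, 2 of them in Vsig4, are shown with the motif, or its reverse complement, in capitals, because they are the sequence that Clec4f, Vsig4, Timd4 and Lyz2 hold in common there.
Clec4f: aggcaggtttgGGAAGTtgtcctgacctca
Vsig4: cggaaggtgggGGAAGTgtgtgaggaaact
Vsig4, further match: cagctaccagcACTTCCaggttcttcagca
Timd4: gcggcagaaagGGAAGTgaaagttgagcgt
Lyz2: gatcggtaggaACTTCCtgttttgcacaca
These matches are a description of the letters and were not tested as binding sites.

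In units of 1000000 estimated reads, mouse libraries held 42.6 to 78.0 and rat libraries 0.188 to 58.5. Values are normalized counts, that is, estimated reads of a gene divided by a factor for the library. A normalized count of the shallowest rat library stood for few reads, since 1 read was worth up to 10.5 normalized counts there. Sirt1 itself was at 492.7 to 699.1 normalized counts in the 13 WT/Floxed mice and at 534.6 to 616.5 in the 8 L-Sirt1 KO mice, so the gene-level count did not separate the genotypes, and it sums over all exons whether or not a part is deleted. The counts of these genotypes were also normalized apart. The authors measured hepatic Sirt1 in both genotypes by RT-qPCR, which is not part of these counts. The library of WT/Floxed LNA29 replicate 4 stood apart from the other 7 of its group in these genes, and results that rest on it are given with and without it.

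Expressed per kilobase of exon, the saline groups ranked the genes much alike. In WT/Floxed saline Lyz2 was highest at 3590.0 ± 680.4 normalized counts per kb (SD, n = 5), followed by Cd5l (2749 ± 665), C1qa (2639 ± 424) and Clec4f (2546 ± 441), 3 neighbours that differed by less than their SD. Vsig4, at 1201 ± 329 per kb, lay below them. Csf1r (531 ± 146), Marco (319 ± 104), Adgre1 (306 ± 102), Timd4 (192 ± 49.0) and Cd163 (149.7 ± 44.0) were the lower 5, with Marco and Adgre1 not separated by their spread. In L-Sirt1 KO saline (n = 4) Lyz2 (3294 ± 202) was again first, and Timd4 (157 ± 14.4) and Cd163 (145 ± 37.9) were again last.

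LNA29 against saline in WT/Floxed mice asked what suppression of miR-29 did to the macrophage genes of the liver. None of the 10 genes was called by the criteria of the study for mice (p under 0.05, adjusted p under 0.2, mean over 50 and a fold change over 1.2), while 1.93% of the 15811 genes tested were called lower and 2.42% higher. The point estimates of 8 of the 10 were below 0, against 49.5% of all genes tested, and their median was -0.43 on the log2 scale against 0.0017 over all genes. The 10 genes move together from mouse to mouse, so this count is not that of independent genes. The single-value exact permutation tests, two-sided, gave p between 0.061 and 0.66, where the smallest p the design allows is 0.00078.

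**Figure D1:**
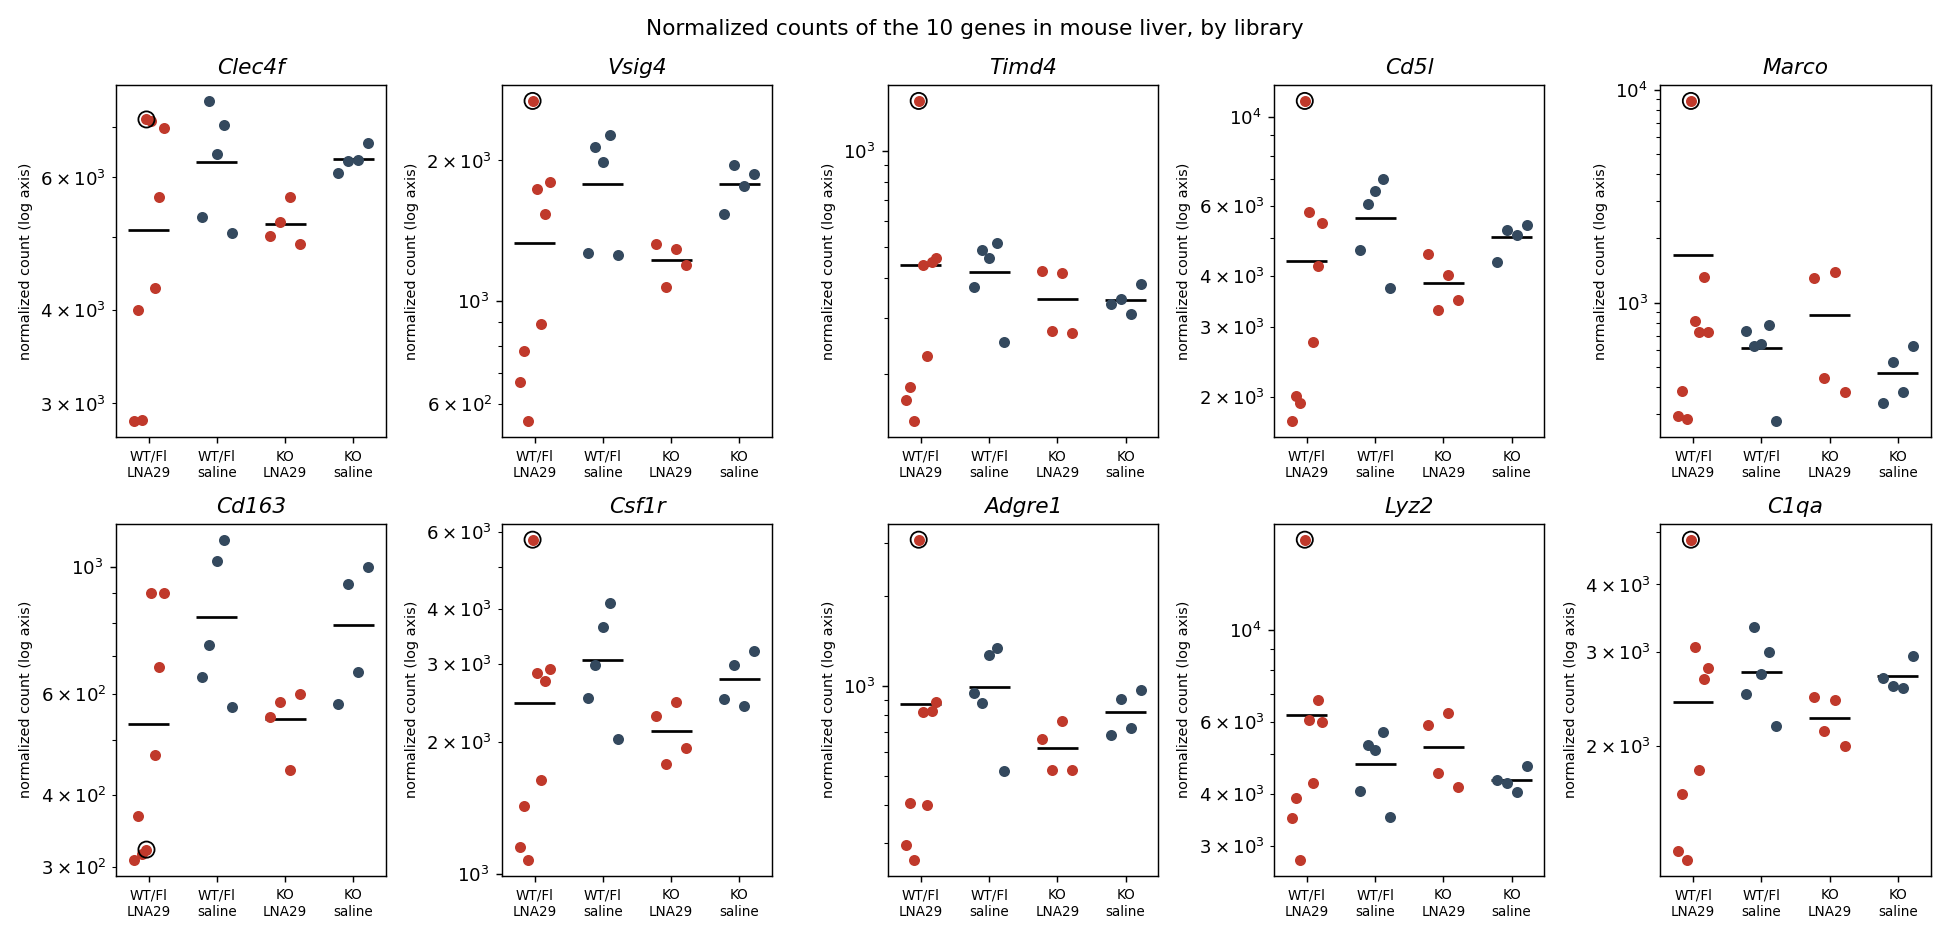
Normalized counts of the 10 genes in each mouse library (vertical axis, logarithmic) by group, with points for libraries and bars for group means; the ringed point is WT/Floxed LNA29 replicate 4. In WT/Floxed mice with LNA29 the points of 7 genes run from below the saline group to above it, those of Clec4f and Cd163 run from below it into its range, those of Marco run from within its range to above it, and in L-Sirt1 KO mice the LNA29 points of Clec4f, Vsig4 and C1qa all lie below the saline points.

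The spread among the LNA29 mice was wide. Clec4f, a Kupffer cell lectin, had 2843 at the lowest, 4963 at the median and 7169 at the highest with LNA29 and 5323, 7588, 6443, 7048 and 5054 with saline. The low LNA29 livers had less than any saline liver and the high ones lay among them. The log2 fold change was -0.37 ± 0.24 (SE; adjusted p = 0.56, limma). Vsig4, the complement receptor through which Kupffer cells take up coated particles, had 552 at the lowest, 1213 at the median and 2684 at the highest with LNA29 and 1263, 2136, 1984, 2271 and 1254 with saline, a log2 fold change of -0.57 ± 0.35 (adjusted p = 0.53). Cd5l, a protein secreted by tissue macrophages, had 1743 at the lowest, 3498 at the median and 10963 at the highest with LNA29 and 4647, 6079, 6526, 6982 and 3750.5 with saline (-0.60 ± 0.39, adjusted p = 0.56). In each of these genes the range with LNA29 was wider than that with saline.

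Cd163, the scavenger receptor for haemoglobin bound to haptoglobin, came nearest to a call. It had 309 at the lowest, 419 at the median and 903 at the highest with LNA29 and 644, 731, 1025, 1116 and 570.5 with saline. The groups overlapped, and the log2 fold change was -0.71 ± 0.30 (adjusted p = 0.31, limma; exact permutation p = 0.061, two-sided). It was the only one of the 10 with an unadjusted p under 0.05, against 6.5% of all genes for that direction. Within the WT mice the difference was -1.19 and within the floxed mice it was -0.13. Marco, a class A scavenger receptor that binds bacteria, had 285 at the lowest, 728 at the median and 8851 at the highest with LNA29 against 738, 628, 640.2, 789 and 278 with saline (0.46 ± 0.66, adjusted p = 0.83). Lyz2, the lysozyme of myeloid cells, had 2772 at the lowest, 5132 at the median and 16589 at the highest against 4061, 5272, 5106, 5661 and 3522 (0.20 ± 0.33, adjusted p = 0.85). For Marco and Lyz2, the only 2 genes with an estimate above 0, the highest LNA29 value was that of replicate 4.

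The remaining 4 genes also overlapped between the groups. Csf1r, the receptor for CSF1 and IL-34, ran 1079 to 5763 with LNA29 and 2032 to 4127 with saline (-0.50 ± 0.35). Adgre1, which encodes the F4/80 antigen, ran 263 to 3076 and 518 to 1342 (-0.59 ± 0.48). Timd4, a phosphatidylserine receptor, ran 142 to 1431 and 251 to 513 (-0.31 ± 0.45). C1qa, the A chain of complement C1q, ran 1229.9 to 4846 and 2185 to 3327 (-0.32 ± 0.28). The adjusted p of these 4 lay between 0.6 and 0.83.

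Replicate 4 of the LNA29 group, a WT mouse, set much of that spread. It had 8851 normalized counts of Marco against 285 to 1324 in the other 7, and 3076 of Adgre1 against 263 to 885. Timd4 was 1431 against 142 to 461, and Lyz2 16589 against 2772 to 6754. In that library 8 of the 10 genes exceeded the highest saline value, Clec4f at 7169 lay within the saline range, and Cd163 at 321 lay below every saline liver. Without this library the estimates of Marco and Lyz2 were -0.033 and -0.035, Adgre1 was -0.92 (adjusted p = 0.23, limma), the median of the 10 was -0.62, and still 0 of 10 were called.

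The other 7 LNA29 livers divided largely by flow cell. Replicates 1, 2 and 3, all sequenced on flow cell HMLJ2BGX3, were below the lowest saline value in 9, 8 and 9 of the 10 genes, and replicate 6 on HML3JBGX3 was in 8 of 10. Replicates 5, 7 and 8 were below it in 0 of 10. The 2 saline livers on HMLJ2BGX3 were not the lowest of their group in any of the 10 genes. Within HMLJ2BGX3 (3 LNA29 and 2 saline mice) the log2 difference was -0.99 for Clec4f, -1.31 for Vsig4, -1.49 for Cd5l and -1.52 for Adgre1. Within HMYC7BGX3 (2 and 2) it was 0.073 for Clec4f, -0.021 for Vsig4, -0.088 for Cd5l and 0.034 for Adgre1. The other genes there were Marco 1.07, Lyz2 0.51, Timd4 0.34, C1qa 0.097, Csf1r -0.028 and Cd163 -0.038. Within HML3JBGX3 (3 and 1, replicate 4 among the 3) it was -0.097 for Clec4f, -0.30 for Vsig4, -0.23 for Cd5l and -0.34 for Adgre1. Both backgrounds were present among the low livers and among the others. The part of flow cell, and of whatever went with it, was not tested, and with flow cell as a covariate 0 of 10 genes were called.

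**Figure D2:**
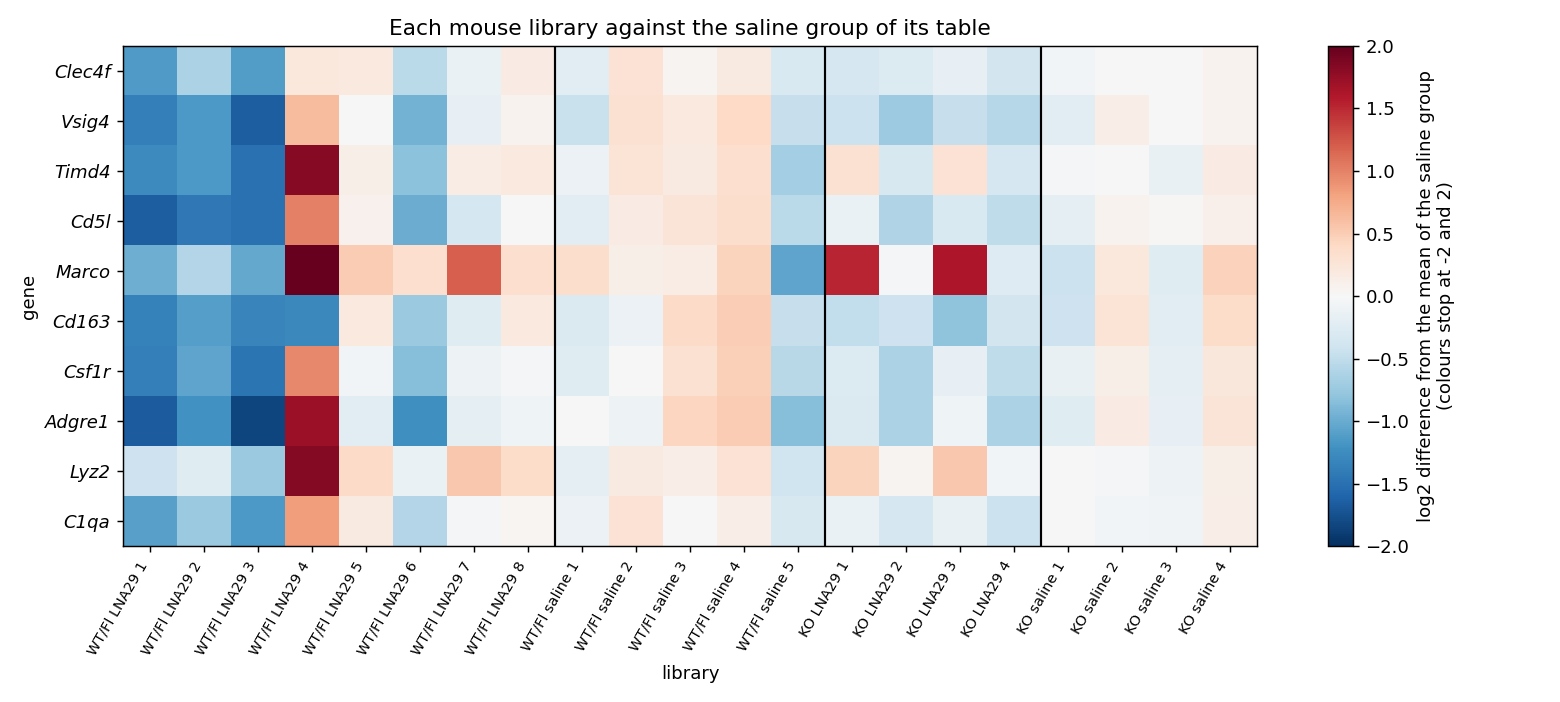
Log2 difference of each gene (rows) in each mouse library (columns) from the mean of the saline group of its table, where red is higher and blue lower and colours stop at -2 and 2. WT/Floxed LNA29 replicates 1, 2, 3 and 6 are blue nearly throughout, while replicate 4 is red except for Clec4f, which is close to saline, and Cd163, which is lower.

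LNA29 against saline in L-Sirt1 KO mice asked the same question in mice with the liver-specific knockout. Vsig4 and Clec4f fell, 2 of the 10 genes, against 0.68% of 15885 genes called lower, and 0 of 10 rose, against 1.19%. Vsig4 was 1321, 1072, 1294 and 1196 normalized counts with LNA29 and 1536, 1955, 1766 and 1869 with saline. All 4 LNA29 livers lay below all 4 saline livers, and the log2 fold change was -0.54 ± 0.11 (SE; adjusted p = 0.089, limma; exact permutation p = 0.029, two-sided, the smallest 4 against 4 allows). Clec4f was 5007, 5242, 5651 and 4894 with LNA29 and 6084, 6303, 6330.4 and 6673 with saline. Its groups did not overlap either, and the log2 fold change was -0.29 ± 0.076 (adjusted p = 0.19). Neither call was kept with flow cell as a covariate, where Vsig4 had an adjusted p of 0.22 and Clec4f of 0.34, or at an adjusted p under 0.05. Leaving out LNA29 replicate 2, LNA29 replicate 4 or saline replicate 4 also ended the call of Vsig4, with the estimate at -0.48, -0.54 and -0.52, and Clec4f was called in 1 of the 8 fits without a library, that without saline replicate 1.

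C1qa, Cd5l, Cd163, Csf1r and Adgre1 were not called and had estimates below 0. C1qa was 2469, 2136, 2436 and 2004 with LNA29 and 2685, 2590.5, 2569 and 2950.4 with saline, again with no overlap (-0.26 ± 0.095, adjusted p = 0.35). These 3 non-overlapping genes stand beside 3.3% of all genes tested whose LNA29 group lay wholly below saline. Cd5l was 4548, 3304, 4040.4 and 3496 against 4352, 5230.3, 5087 and 5376 (-0.39 ± 0.12, adjusted p = 0.26), with LNA29 replicate 1 inside the saline range. Cd163 was 547, 582, 443 and 600.2 against 578, 936, 656 and 1000.3 (-0.52 ± 0.19, adjusted p = 0.34). Csf1r (-0.40 ± 0.13) and Adgre1 (-0.41 ± 0.16) overlapped between groups, with adjusted p of 0.3 and 0.39. In all, 7 of the 10 genes had an unadjusted p under 0.05 in the lower direction, against 4.9% of all genes, 8 of 10 estimates were below 0, against 50.5%, and the median of the 10 was -0.34 against -0.0027 over all genes. As the 10 genes move together from mouse to mouse, these counts are again not those of independent genes.

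Marco and Lyz2 had estimates above 0, and that of Timd4 was close to 0. Marco was 1298, 440.1, 1389.8 and 381 with LNA29 and 337, 526.4, 382 and 622 with saline. Replicates 1 and 3 exceeded every saline liver, replicates 2 and 4 lay within the saline range, and the estimate was 0.71 ± 0.43 (adjusted p = 0.59). Lyz2 was 5883, 4505, 6294 and 4175 against 4333, 4261, 4054 and 4694, high in the same replicates 1 and 3 (0.25 ± 0.13, adjusted p = 0.54). Timd4 was 419, 273, 415 and 269 against 331, 343, 307 and 383, above the saline range in replicates 1 and 3 and below it in the other two (-0.016 ± 0.18, adjusted p = 0.98). Replicates 1 and 3 were on different flow cells.

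The response to LNA29 did not differ detectably between the genotypes for any of the 10 genes. The interaction of LNA29 with genotype, fitted over the 21 mice, ranged from 0.025 (Vsig4) to 0.29 (Timd4) on the log2 scale with SE of 0.32 to 0.96, and adjusted p ran from 0.924 to 0.996, against 0.0449% of 15601 genes called. For Vsig4 the SE of the interaction, 0.47, was close to the size of its fold change in L-Sirt1 KO mice. With 1 library left out, the interaction ran from 0.12 to 0.60 for Timd4, 0.068 to 0.45 for Cd5l and -0.055 to 0.74 for Marco. In these 21 fits 0 of the 10 genes were called.

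**Figure D3:**
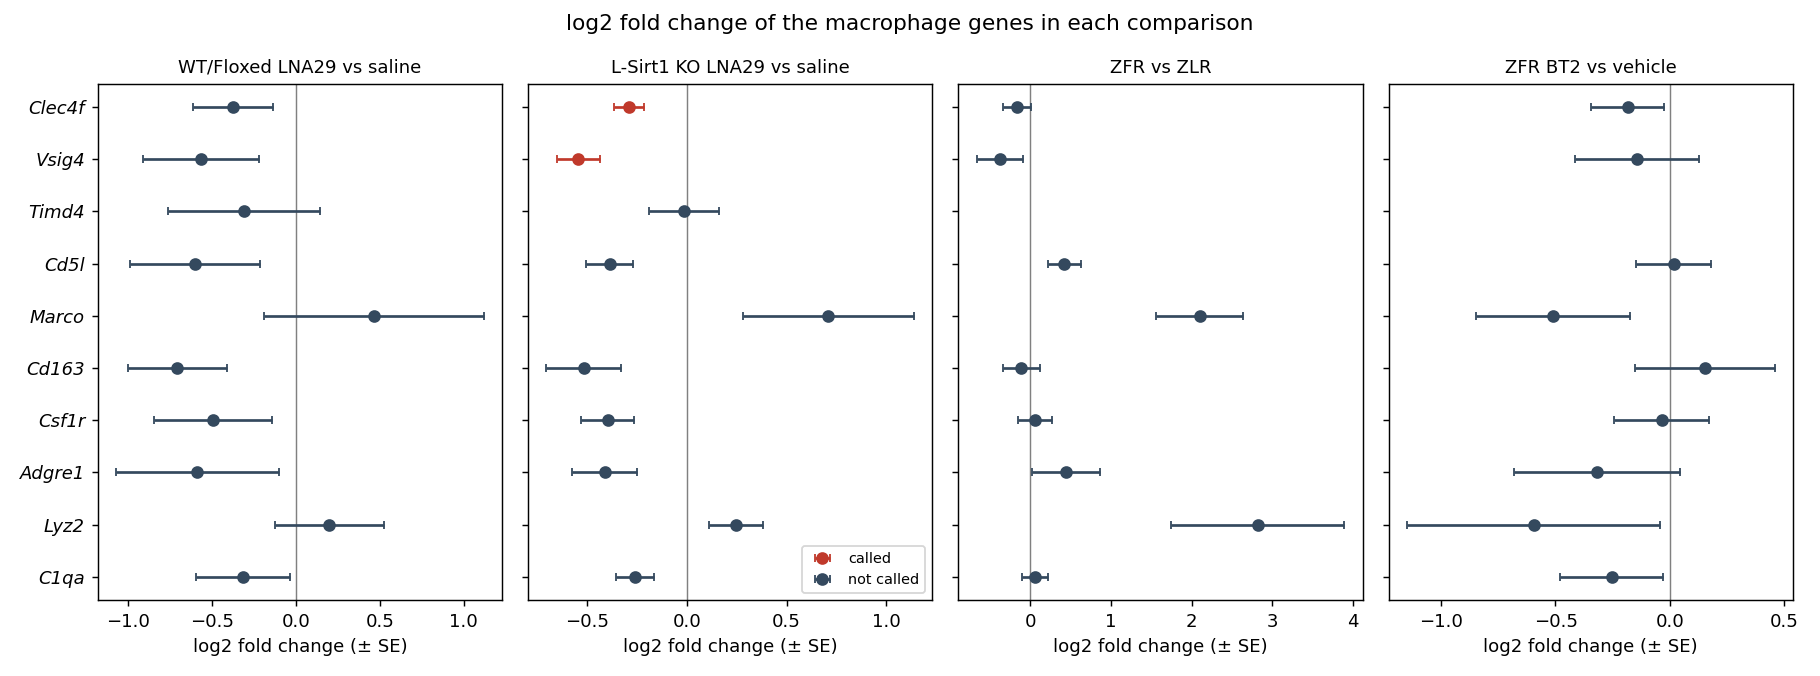
Log2 fold change with its SE (horizontal axis) of each gene in the 4 comparisons, with called genes in red; the horizontal scales differ between panels. Only Clec4f and Vsig4 in L-Sirt1 KO mice are called, and the widest bar of each mouse panel belongs to Marco.

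The 10 genes moved together from mouse to mouse. After centring each of the 4 mouse groups, the median Pearson correlation over the 45 pairs was 0.93 across 21 mice, a description in which points share their library and its normalization. Cd163 stood out, with 0.36 against the mean of the other 9, and Csf1r was closest to that mean at 0.99. Without WT/Floxed LNA29 replicate 4 the median was 0.91 over 20 mice and Cd163 reached 0.85, so its low value rested on that library. Among 12653 genes outside all lists the 5 most like the mean of the 10 included Nfam1 (0.97), Treml4 (0.97), Sdc3 (0.97) and Myo1f (0.97). Without that library, Nfam1, Sdc3 and Treml4 were again among the first 5, with Adgre4 in place of Myo1f.

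Ratios of the other 9 genes to Clec4f were also taken within each library. They were chosen after values were seen and were not tested, and a ratio moves with Clec4f as well as with the other gene. Lyz2 per Clec4f was 0.849 to 2.31 with LNA29 and 0.695 to 0.803 with saline in WT/Floxed mice, and without replicate 4 the highest LNA29 value was 1.23. It was 0.853 to 1.17 with LNA29 against 0.640 to 0.712 with saline in L-Sirt1 KO mice. Lyz2 gave the only 1 of the 9 ratios whose groups did not overlap, higher with LNA29 in both genotypes. The same held for 0.797% of 15810 genes in WT/Floxed mice and for 22.5% of 15884 genes in L-Sirt1 KO mice, where Clec4f itself was called lower. In the lower direction 0 of the 9 ratios were without overlap, against 0% and 0.233% of genes. Marco per Clec4f overlapped between the groups. It ran 0.0964 to 1.23 with LNA29, or 0.0964 to 0.234 without replicate 4, and 0.0550 to 0.139 with saline in WT/Floxed mice, and 0.0778 to 0.259 against 0.0554 to 0.0932 in L-Sirt1 KO mice. Its median with LNA29 was above that with saline in both genotypes, as was that of Lyz2. The medians of Vsig4, Cd163, Cd5l, Csf1r, Adgre1 and C1qa per Clec4f were lower with LNA29 in both, with Adgre1 at 0.109 against 0.178 in WT/Floxed and 0.120 against 0.129 in L-Sirt1 KO mice.

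Other macrophage genes were looked at as lists. In WT/Floxed mice 0 of 16 other pan-macrophage genes were called (median -0.33, 16 of 16 below 0), with Fcgr1 at -0.82. Of 12 other Kupffer cell genes and regulators 0 were called (median -0.23, 10 of 12 below 0), with Folr2 at -0.70 and Id1 at 0.53. In L-Sirt1 KO mice 2 of the 16 were called lower (median -0.27, 14 of 16 below 0), Tyrobp (-0.46, adjusted p = 0.15), an adaptor of activating receptors, and Mrc1 (-0.33, adjusted p = 0.15), the mannose receptor. Of the 12, Folr2 (-0.49, adjusted p = 0.18), a folate receptor of resident macrophages, was called lower, and Hmox1 was -0.28 (median -0.13, 9 of 12 below 0). Tyrobp was called in 3 of the 8 fits without 1 library, Mrc1 in 2 and Folr2 in 2, with adjusted p of up to 0.35, 0.35 and 0.40, and each was called in 3 of 7 other alternatives. All 3 calls were lost without LNA29 replicate 2, 3 or 4 or saline replicate 2 or 4, and those of Mrc1 and Folr2 also without saline replicate 3. The list of CSF1R ligands and growth factors (2 tested) gave 0 calls, with Csf1 at -0.24 in WT/Floxed and Il34 at -0.11 in L-Sirt1 KO mice.

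Genes of other macrophage states and functions gave few calls. Of 9 lipid-associated macrophage genes 1 rose in WT/Floxed mice, Cd63 (0.52, adjusted p = 0.017), while Fabp5 was 0.55. The median of that list was 0.51, with 8 of 9 estimates above 0, the direction opposite to that of the 10 macrophage genes. Whole liver does not show whether these RNAs came from macrophages, and a change of macrophage state was not tested. The call of Cd63 held in all 13 fits without 1 library and was lost with the replicate block (adjusted p = 0.41). In L-Sirt1 KO mice 0 were called and the median was 0.14, with 6 of 9 above 0 (Fabp5 -0.81, Trem2 0.49). Of 10 scavenger and phosphatidylserine receptor genes 1 was called lower in WT/Floxed mice (median -0.15, 7 of 10 below 0), Gas6 (-0.35, adjusted p = 0.16), the bridging ligand of the receptor MERTK, with Msr1 at -0.54 and Cd36 at -0.36. That call of Gas6 was kept in 6 of 13 fits without 1 library and lost without LNA29 replicate 2, 6, 7 or 8 or saline replicate 2, 3 or 5. In L-Sirt1 KO mice Stab1 (-0.53, adjusted p = 0.028) fell and Colec12 (0.32, adjusted p = 0.19) was called higher, both scavenger receptors, and Mertk was -0.34 (median -0.14, 8 of 10 below 0). Which liver cells held the RNA of Stab1, or that of Mrc1 above, was not tested. The call of Stab1 held in all 8 fits without 1 library and that of Colec12 in 1, the fit without saline replicate 1. No monocyte and neutrophil gene (12 listed, 9 tested) was called in either genotype, with Ccr2 at -0.14 in WT/Floxed and S100a9 at 0.42 in L-Sirt1 KO mice. Macrophage cytokines gave 0 calls, with Ccl2 at -0.21 and 0.29, Il18 at -0.15 and Il1b at -0.15. Complement C1 and its inhibitor gave 0 calls, with C1rl at 0.054 and Serping1 at -0.12.

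Few markers of other liver cells were called. Lyve1, a receptor of sinusoidal endothelium, was called lower in both genotypes (-0.51, adjusted p = 0.16, and -1.17, adjusted p = 0.11), 1 of 8 endothelial genes each time, with Oit3 at -0.25 and -0.15. In WT/Floxed mice the call of Lyve1 held in 7 of 13 fits without 1 library, with adjusted p of up to 0.35, and was lost without LNA29 replicate 3, 5, 6 or 7 or saline replicate 1 or 3. It held in 6 of 8 in L-Sirt1 KO mice and was lost there without LNA29 replicate 3 or saline replicate 4. With flow cell as a covariate it was lost in both. The summed level of the 8 endothelial genes was 10600.1 to 18548 with LNA29 and 13335 to 18375 with saline in WT/Floxed mice, and 14210.4 to 15516 and 14664 to 16187 in L-Sirt1 KO mice. Among 6 hepatocyte genes Apoa1 rose (0.51) and Tat fell (-0.48) in WT/Floxed mice, and 0 were called in L-Sirt1 KO mice (Tat 0.42, Cyp2e1 -0.27). The call of Tat was lost without saline replicate 1 or 4. Stellate cell, T and NK cell, B cell, red blood cell and cholangiocyte lists gave 0 calls in both. Among their leading genes were Pdgfrb (0.26 and 0.18), Ngfr (-0.17), Des (0.28), Cd3g (-0.1 and 0.20), Ms4a1 (0.28), Hbb-bs (-0.28), Hbb-bt (-0.19 and -0.36), Hba-a2 (-0.33) and Krt7 (0.54 and -0.44). Their part in the macrophage values was not tested.

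ZFR against ZLR asked how the liver of an obese rat differs from that of a lean one. No macrophage gene was called at an adjusted p under 0.05, against 1.8% of 8633 genes called higher and 2.46% lower, and 9 of the 10 genes could be tested. Marco came nearest. It was 112, 65.9, 54.3 and 91.8 normalized counts in ZFR and 6.13, 31.6, 10.5 and 41.8 in ZLR. All 4 ZFR livers lay above all 4 ZLR livers, the only 1 of the 9 genes without overlap, as were 7.8% of all genes in that direction. The log2 fold change was 2.10 ± 0.54 (SE; adjusted p = 0.066, limma; exact permutation p = 0.029, two-sided). The ZLR values rested on about 160, 732, 1 and 4 reads and those of ZFR on 3471, 56, 26 and 59. Without the 2 libraries under 500000 estimated reads, ZLR replicates 3 and 4, which leaves 2 ZLR against 4 ZFR, an alternative chosen after the depths were seen, Marco was called (2.37, adjusted p = 0.035). Without ZLR replicate 4 alone Marco was also called (2.505, adjusted p = 0.026). With no library left out, the difference was 2.51 within flow cell HK2NYBGX5 and 1.69 within HJY3CBGX5 (2 against 2 each). The ZLR side of HJY3CBGX5 was the same shallow replicates 3 and 4.

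Lyz2 was 73.1, 134, 111 and 82.4 in ZFR and 22.2, 20.8, 73.7 and 0 in ZLR, where replicate 4 was listed at 0 and replicate 3 rested on 7 reads. The groups overlapped by ZLR replicate 3, and the log2(value + 1) difference of 2.82 ± 1.07 (adjusted p = 0.21) depends on the pseudocount at that 0. With the same 2 ZLR against 4 ZFR it was 2.13 (adjusted p = 0.0017, limma), and Lyz2 was then called.

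**Figure D4:**
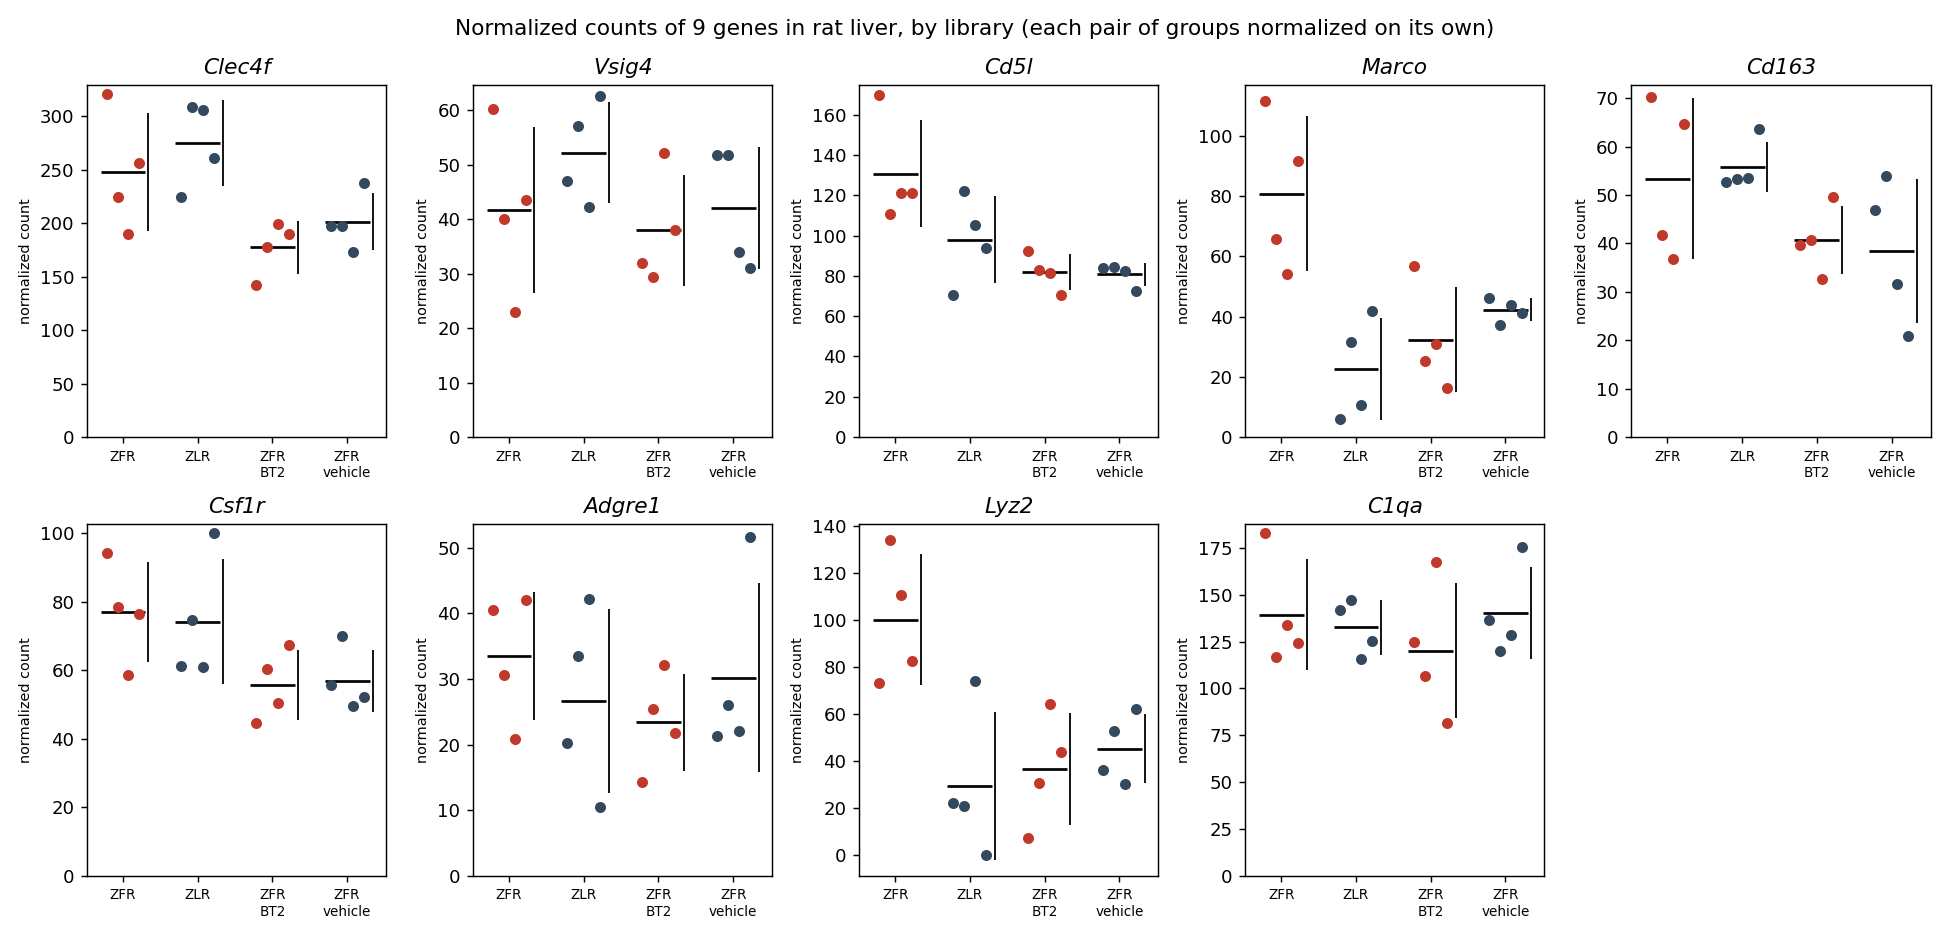
Normalized counts of 9 genes in each rat library (vertical axis, from 0 except where an error bar passes it) by group, with points for libraries, bars for group means and lines for 1 SD; the ZFR and ZLR pair and the BT2 and vehicle pair were normalized apart. Marco is higher in all 4 ZFR than in all 4 ZLR livers, and the other panels overlap.

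The resident Kupffer cell markers Clec4f, Vsig4 and Cd5l were not called. Clec4f was 320.4, 225, 190.1 and 257 in ZFR and 224, 308, 305 and 261 in ZLR (-0.16 ± 0.18, adjusted p = 0.66), and the groups overlapped. Vsig4 was 60.1, 40.0, 23.0 and 43.6 against 47.0, 57.1, 42.1 and 62.7 (-0.38 ± 0.29), and Cd5l 169.8, 111, 121 and 121 against 70.5, 122, 105 and 94.0 (0.42 ± 0.20, adjusted p = 0.34). Cd163 (-0.11 ± 0.23), Csf1r (0.061 ± 0.21), Adgre1 (0.44 ± 0.43) and C1qa (0.056 ± 0.17) had adjusted p of 0.62 to 0.9. Timd4 was at 0 to 0.92 normalized counts in the 16 rat livers, below the minimum mean of 10, and was not tested. The median of the 9 was 0.061 against 0.070 over all genes. Of 8 ratios to Clec4f, those of Marco and Cd5l did not overlap, both higher in ZFR, against 4.78% of 8632 genes in that direction, and 0 were without overlap in the lower direction, against 1.87%. The ratio of Marco to Clec4f was 0.286 to 0.358 in ZFR and 0.0274 to 0.16 in ZLR, and that of Cd5l was 0.473 to 0.637 in ZFR and 0.315 to 0.396 in ZLR. In ZLR replicates 3 and 4 these ratios rested on few reads, about 10 and 9 of Cd5l, 1 and 4 of Marco and 29 and 25 of Clec4f.

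**Figure D5:**
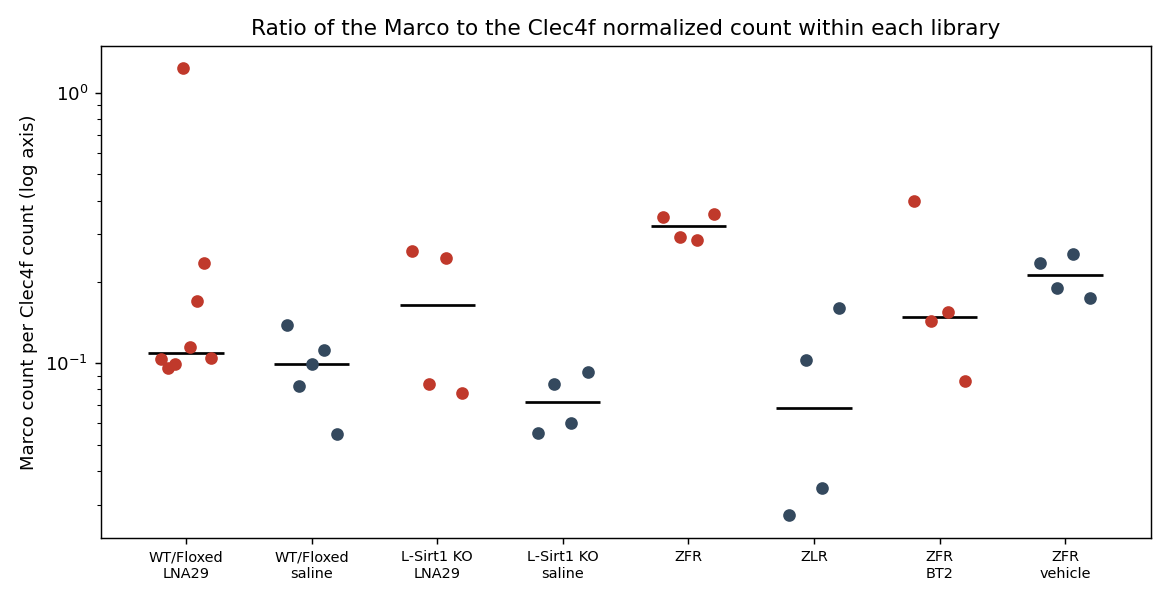
Ratio of the Marco to the Clec4f normalized count in each library (vertical axis, logarithmic) for the 8 groups, with points for libraries and bars for medians. The 4 ZFR ratios lie between 0.286 and 0.358, above the 4 ZLR ratios, and 1 WT/Floxed LNA29 library reaches 1.23.

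Among the other lists, 4 genes of the lipid-associated and scavenger lists rose in ZFR. Of 9 lipid-associated macrophage genes 5 could be tested and 2 rose, Gpnmb (1.81, adjusted p = 0.0018) and Fabp5 (1.78, adjusted p = 0.0076), the latter a fatty acid binding protein. Of 10 scavenger and phosphatidylserine receptor genes 9 were tested and 2 rose, Cd36 (1.71, adjusted p = 0.0025), a fatty acid and lipoprotein receptor, and Gas6 (1.42, adjusted p = 0.0035). All 4 calls held in each of the 8 fits without 1 library and under the 8 other alternatives. The medians were 1.78 (5 of 5 above 0) and 0.52 (7 of 9). These genes are also expressed outside macrophages. Of 14 other pan-macrophage genes tested 0 were called, with Cybb (1.01, adjusted p = 0.062), a subunit of the phagocyte oxidase, and Cd14 at -0.71. Other Kupffer cell genes and regulators (8 tested, Hmox1 0.63, Fcna -0.52) gave 0 calls, and so did complement C1 and its inhibitor (Serping1 0.20). Of 7 endothelial genes Stab2 (1.16, adjusted p = 0.033) was called higher, while Kdr was -0.31 and Fcgr2b -0.18. Of 6 hepatocyte genes Ttr (-0.43, adjusted p = 0.038) was called lower, with Cyp2e1 at -0.97. Of 5 stellate genes tested 0 were called (median 0.37, 3 of 5 above 0), with Lrat at -0.013. The summed level of the 8 stellate genes was 191 to 296 in ZFR and 121 to 200 in ZLR. Stab2 was called in 3 of the 8 fits without 1 library and lost without ZLR replicate 1 or 2 or ZFR replicate 1, 3 or 4. Ttr was called in 1 of the 8, that without ZFR replicate 4, and in 4 of the 8 other alternatives (adjusted p up to 0.42). No monocyte and neutrophil, T and NK, B or red blood cell gene reached the minimum mean, and the remaining lists had 1 or 2 tested genes and 0 calls.

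BT2, an inhibitor of the kinase that restrains branched-chain ketoacid dehydrogenase, was compared with vehicle in ZFR. No macrophage gene was called, and neither was any of the 8405 genes tested (0% in both directions at an adjusted p under 0.05, limma). At an unadjusted p under 0.05, 2% were lower and 1.95% higher, and 0 of the 9 macrophage genes. Among the alternatives, 1 gene each was called with sample quality weights, with a pseudocount of 10 and without the libraries under 500000 estimated reads. Without BT2 replicate 3, 1 gene was called higher and 1 lower, and without vehicle replicate 2, 1 was called higher. No macrophage gene was among these calls. Marco was 56.9, 25.4, 30.8 and 16.3 with BT2 and 46.3, 37.4, 44.0 and 41.3 with vehicle. The BT2 group surrounded the vehicle group, and the log2 fold change was -0.51 ± 0.34 (adjusted p = 0.9). Lyz2 was 7.12, 30.7, 64.3 and 43.5 against 35.9, 52.6, 30.3 and 61.9 (-0.60 ± 0.55), the lowest value resting on 2 reads. Clec4f was 142, 178, 199 and 190.3 against 197, 197, 173 and 237 (-0.18 ± 0.16). Vsig4, Cd5l, Cd163, Csf1r, Adgre1 and C1qa lay between -0.32 and 0.15 with SE of 0.16 to 0.36, and the median of the 9 was -0.18 against 0.0061 over all genes. The exact permutation p of the tested genes ran from 0.23 to 0.97. In the other lists the largest estimate was Hmox1 at 1.51 ± 0.50 (adjusted p = 0.9), and those of Gas6 (-0.58), Cd63 (0.34), C1qc (0.32), Apoa1 (0.30), Fcgr2b (0.30), Lyve1 (0.25), Scarb1 (-0.22), Tat (0.15), Fabp5 (-0.097), Nr1h3 (0.063) and Serping1 (0.044) were smaller.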

How the data were processed

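Each deposited table holds a signal, which the authors obtained from gene counts estimated with Salmon after alignment with STAR to mm10 or rn6 and divided by DESeq2 normalization factors, with each of the 4 tables normalized on its own. Libraries were poly(A)-selected. Every column was matched to a sample by its label (0 unmatched). Entries with no gene name or a repeated name were left out (0.0134% to 2.17% of the counts for either kind). The authors had left out 1 floxed saline mouse. Tests used limma 3.58.1 in R 4.3.3 (lmFit, eBayes with trend) on log2(value + 1) for genes with a mean of at least 10, with Benjamini-Hochberg adjustment over each table, and fold changes are on that scale. The test scripts were tested on simulated data. Single genes were also compared by exact permutation over libraries. Named genes were all 10 macrophage genes and, from each other list, the 2 with a mean of at least 50 and the largest change (1 for lists under 6 genes); Mrc1, Gas6 in mice, Colec12 and Stab2 were added because they were called. The genes and lists were chosen with earlier results of these data known. Alternatives were another pseudocount (10), no minimum, TMM scaling, quality and precision weights, flow cell, background and replicate block terms, another threshold and each library left out. A few genes that the rule for named genes picked are not reported here.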

Additional observations from a re-analysis of the deposited data

Results flagged for a closer look

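In all, 76 gene and group pairs were looked at on the log2 scale for a library far from the rest of its group (groups of 4 to 8). Of these, 4 were picked out. By chance alone the rule picks out about 1 pair in 20, so 4 of 76 is about the number that chance gives. Marco in WT/Floxed LNA29 had 8851 normalized counts in replicate 4 against 284.7 to 1324 in the other 7. Marco in WT/Floxed saline had 277.8 in replicate 5 against 627.9 to 788.7 in the other 4. Cd163 in ZLR had 63.6 in replicate 4, resting on about 6 reads, against 52.7 to 53.5. Cd5l in ZFR vehicle had 72.3 in replicate 4, resting on about 7 reads, against 82.5 to 84.2. A response to LNA29 that differed between the genotypes was not detected for any macrophage gene (0 of 10).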

How the results depend on the processing

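In WT/Floxed mice 0 of 10 genes were called under every alternative run, and leaving out single libraries moved the median log2 fold change between -0.62 and -0.31, Marco between -0.033 and 0.67 and Lyz2 between -0.035 and 0.33, the negative values being those without LNA29 replicate 4. In L-Sirt1 KO mice the number called lower was 2 as reported, 1 with no minimum and 1 with TMM scaling, 0 with flow cell as a covariate, 0 with the replicate block, 0 at an adjusted p under 0.05, 7 with sample quality weights, and 0 to 4 when 1 library was left out. It was 0 without LNA29 replicate 2, LNA29 replicate 4 or saline replicate 4, and 4 without saline replicate 1. In ZFR against ZLR the number called higher was 0 as reported, 1 with a pseudocount of 10, 2 with sample quality weights, 1 with precision weights, 2 without the libraries under 500000 reads, and 0 to 1 when 1 library was left out, the 1 being Marco without ZLR replicate 4. In BT2 against vehicle 0 of 9 were called throughout. The replicate numbers were taken as names only, since same-numbered mice or rats correlated between -0.28 and 0.24 in their deviations and not every library correlated best with its own number. The cause of these shifts was not tested.

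Signs turned for the estimates given next, none of which was called as reported. In WT/Floxed mice the replicate block gave Ccr2 0.043 and Ccl2 0.015, and leaving out single libraries gave Hbb-bt -0.30 to 0.077. In L-Sirt1 KO mice such fits gave Timd4 -0.12 to 0.091, Il34 -0.19 to 0.066, Ccl2 -0.14 to 0.48 and Il1b -0.47 to 0.063. In ZFR against ZLR quality weights gave Cd163 0.17 and Fcgr2b 0.11, TMM scaling gave Lrat 0.0072, and leaving out the shallow libraries gave C1qa -0.074 and Fcgr2b 0.076. Leaving out single libraries gave Cd163 -0.26 to 0.049, C1qa -0.081 to 0.13, Csf1r -0.042 to 0.21 and Lrat -0.35 to 0.26. In BT2 against vehicle Cd5l was -0.0034 with TMM scaling, -0.0088 with quality weights and -0.0049 with precision weights, Cd163 was -0.16, -0.12 and -0.20 with quality weights, precision weights and without shallow libraries, C1qa was 0.028 without them, and Nr1h3 was -0.12 with quality weights and -0.10 without them. Leaving out single libraries there gave Lyz2 -0.98 to 0.024, Cd163 -0.098 to 0.34, Csf1r -0.13 to 0.067, Cd5l -0.043 to 0.084, Nr1h3 -0.029 to 0.22, Fabp5 -0.33 to 0.11, Serping1 -0.019 to 0.10 and Tat -0.28 to 0.49. The interaction with genotype was, with quality weights, -0.077 for Cd163, -0.038 for Clec4f, -0.039 for C1qa and -0.11 for Vsig4, and with single libraries left out -0.0010 to 0.51 for Adgre1, -0.023 to 0.17 for Clec4f, -0.040 to 0.31 for Csf1r, -0.055 to 0.74 for Marco, -0.060 to 0.22 for C1qa, -0.13 to 0.20 for Vsig4 and -0.087 to 0.28 for Lyz2.

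Depth limits the rat values, where 1 read was worth up to 10.5 normalized counts. Leaving out libraries far below the median depth of their table (under 0.1 of it) was planned but removed 0 libraries, so that fit was not run.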
